A study of Mus musculus with 5 samples.

Results

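At 909 places in the mouse genome an hnRNPA1 peak was called in Zhx1-KO cells on top of a ZHX1 peak of control cells, with no hnRNPA1 peak called there in the control cells. These are the knockout-only hnRNPA1 peaks at ZHX1 sites. They were picked from the Zhx1-KO hnRNPA1 list by 2 conditions, at least 1 bp shared with a peak of the control ZHX1 list and none shared with a peak of the control hnRNPA1 list. They make up 909 of 51545 Zhx1-KO hnRNPA1 peaks, a share of 1.76% (Wilson 95% interval 1.65 to 1.88), and 909 of the 1028 Zhx1-KO peaks that touched a ZHX1 peak at all. The other 119 of those 1028 also overlapped a control hnRNPA1 peak. On the ZHX1 side, 907 of 23244 peaks were involved, or 3.9% (3.66 to 4.16).

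The cells were cardiac progenitor (CP) stage cells grown from 46C, a mouse embryonic stem cell line kept on feeder cells. Zhx1-KO cells came from 46C by CRISPR/Cas9 with guides at the start and the stop site of Zhx1 transcription, with lines picked by PCR, and 46C-Ctrl cells kept the gene. The number of clones behind the Zhx1-KO library is not given in the sources used here, so effects of 1 clone and of the knockout cannot be told apart. hnRNPA1 was immunoprecipitated from Zhx1-KO and from 46C-Ctrl cells and ZHX1 from 46C-Ctrl cells, 1 library each, and the 2 inputs were not analysed here. The study looked for genes that ZHX1 and hnRNPA1 may regulate together in these cells. Peak lists hold no expression levels, so the stage of the cells was not checked against its markers. Because the rule itself used all 3 lists and each had 1 library, the values below are descriptions with no test between conditions, and the Wilson intervals cover counting error only. The control hnRNPA1 list held 14662 peaks. The lists carry no counts or scores, the depth is unknown, and the part that library depth or calling threshold had in the longer Zhx1-KO list was not tested.

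ZHX1 is a nuclear protein with zinc fingers and homeodomains, known as a partner of the NF-Y factor that reads CCAAT boxes, and mostly studied as a transcriptional repressor. hnRNPA1 is an abundant RNA-binding protein of the nucleus that steers splice site choice. Its preferred RNA core is UAGGG, whose DNA form TAGGG lies within the TTAGGG unit of vertebrate telomeres, to which hnRNPA1 binds. Chromatin immunoprecipitation (ChIP) can also recover DNA near RNA that the protein holds, since formaldehyde fixes proteins to both.

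Sequences of a few of the places are printed here because the results below turn on them, and they do not stand for all 909. All are read 5′ to 3′ on the plus strand of GRCm38. The first 4 are present once in the genome and are named for developmental or RNA-processing genes, as only a few of the 387 single-copy peaks were. In the next lines the capitals mark the bases that the Zhx1-KO hnRNPA1 peak shares with the control ZHX1 peak, at chr17:85687398-85687697, chr17:46555249-46555475, chr11:109011763-109012004 and chr7:107209153-107209376.
Six2: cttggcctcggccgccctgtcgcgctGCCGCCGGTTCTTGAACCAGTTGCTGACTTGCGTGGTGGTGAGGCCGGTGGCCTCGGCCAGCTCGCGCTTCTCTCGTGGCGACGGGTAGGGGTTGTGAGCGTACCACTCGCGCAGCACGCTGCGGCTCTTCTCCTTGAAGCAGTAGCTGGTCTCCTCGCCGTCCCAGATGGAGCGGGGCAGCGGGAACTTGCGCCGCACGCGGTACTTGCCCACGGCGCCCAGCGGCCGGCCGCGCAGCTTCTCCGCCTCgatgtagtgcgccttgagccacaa
Srf: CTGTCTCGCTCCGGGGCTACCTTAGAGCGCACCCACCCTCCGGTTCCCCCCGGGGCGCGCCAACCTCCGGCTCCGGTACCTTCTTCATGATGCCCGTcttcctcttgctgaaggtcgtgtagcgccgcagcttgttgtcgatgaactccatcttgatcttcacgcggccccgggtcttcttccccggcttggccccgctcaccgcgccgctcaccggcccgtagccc
Axin2: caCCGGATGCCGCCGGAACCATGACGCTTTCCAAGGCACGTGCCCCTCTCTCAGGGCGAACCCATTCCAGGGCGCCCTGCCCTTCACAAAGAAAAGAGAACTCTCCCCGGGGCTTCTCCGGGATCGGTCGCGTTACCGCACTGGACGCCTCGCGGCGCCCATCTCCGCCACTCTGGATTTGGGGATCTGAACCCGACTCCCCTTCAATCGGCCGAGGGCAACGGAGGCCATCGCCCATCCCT
Rbmxl2: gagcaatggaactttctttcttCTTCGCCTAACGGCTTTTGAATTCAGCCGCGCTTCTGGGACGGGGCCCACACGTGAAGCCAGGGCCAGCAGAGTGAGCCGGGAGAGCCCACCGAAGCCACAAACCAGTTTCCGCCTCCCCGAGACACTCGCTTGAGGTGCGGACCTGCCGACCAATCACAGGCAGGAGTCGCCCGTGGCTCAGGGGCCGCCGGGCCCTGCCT
These stretches were rich in G and C (68.7%, 67.0%, 64.9% and 63.8%) and held 36, 24, 23 and 17 CpG dinucleotides. Six2 held 1 TAGGG and no CCAAT, Rbmxl2 held 1 CCAAT and no TAGGG, and Srf and Axin2 held neither on either strand.

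The next 3 are from sequence repeated over many chromosomes. The capitals mark, in each of the 3 largest groups of similar peaks, the run of 32 bases found in more of the group's peaks than any other run, shown within 120 bases of 1 peak at chr12:47585342-47585461, chr10:46586602-46586721 and chr4:27893326-27893445.
Nova1: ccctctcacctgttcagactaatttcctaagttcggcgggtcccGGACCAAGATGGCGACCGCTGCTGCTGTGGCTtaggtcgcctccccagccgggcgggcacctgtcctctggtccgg
Snord14d: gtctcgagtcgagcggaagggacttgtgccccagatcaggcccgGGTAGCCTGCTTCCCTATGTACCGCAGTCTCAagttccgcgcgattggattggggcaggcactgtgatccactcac
Epha7: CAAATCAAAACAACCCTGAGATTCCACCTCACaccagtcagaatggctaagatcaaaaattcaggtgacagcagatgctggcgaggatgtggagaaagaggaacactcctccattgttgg

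Sequence found more than once in the genome made up most of the knockout-only peaks at ZHX1 sites. A peak was called multi-copy when the median of its 32-base words occurred 2 or more times in GRCm38. By that measure 522 of 909 peaks were multi-copy, 57.4% (54.2 to 60.6), against 15664 of the 50636 other Zhx1-KO hnRNPA1 peaks, 30.9% (30.5 to 31.3). The 119 peaks found in all 3 lists stood higher still, at 85.7% (78.3 to 90.9), and the 528 peaks in both hnRNPA1 lists without ZHX1 were at 65.2% (61.0 to 69.1). Within peaks of one width class the gap remained: 52.8% against 27.6% of other peaks under 250 bp, and 60.5% against 35.4% at 350 bp or wider. The authors kept only reads with a unique position, so in such sequence a peak rests on reads that cover the bases by which copies differ. How far that shaped which peaks were called was not tested.

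**Figure D1:**
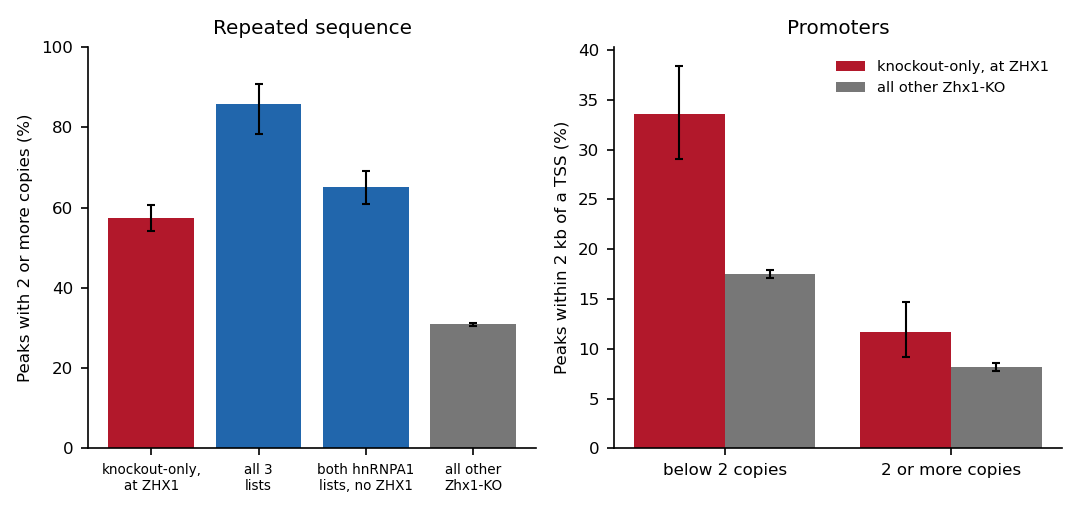
Left, the share of peaks with 2 or more genome copies (%, y axis) among knockout-only hnRNPA1 peaks at ZHX1 sites, peaks in all 3 lists, peaks in both hnRNPA1 lists without ZHX1, and all Zhx1-KO hnRNPA1 peaks other than the knockout-only ones at ZHX1 sites (the last bar includes the 2 middle groups). Right, the share within 2 kb of an annotated transcription start site (%, y axis), split by copy class; red bars are the knockout-only peaks at ZHX1 sites and grey bars all other Zhx1-KO peaks, and error bars are Wilson 95% intervals. The red bar stands at 57.4% on the left and at 33.6% in the single-copy class on the right.

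The multi-copy peaks were partly copies of each other. Peaks that shared at least 25% of the 32-base words of the shorter one formed 35 groups with 252 members, while 657 peaks stood alone. Of the 522 multi-copy peaks, 271 stood alone. The largest group held 48 peaks on 18 chromosomes with a median copy number of 2137, and the peak named for Nova1 belongs to it. Its marked run occurred in 24 of the 48 and also in 455 other Zhx1-KO hnRNPA1 peaks. The next 2 groups held 38 and 37 peaks on 13 and 15 chromosomes, with median copy numbers of 2286 and 11051, and their marked runs occurred in 298 and 577 other Zhx1-KO peaks. Nearly all of their bases were masked as repeats in the RefSeq genome, on average 99.8% and 99.6% in the first 2 groups and the whole peak in the third. The first 2 groups were GC-rich (median GC 62.4% and 59.6%) and the third was not (42.3%). Nova1, Snord14d and Epha7 are the deposited names of peaks in a repeat with many copies elsewhere, and the name need not be the nearest gene. The peak shown for Epha7 lay between genes, and the nearest annotated transcription start site, 25.8 kb away, was that of Gm11914.

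Peaks with 20 or more TAGGG, called array peaks here, were few in number, and 5 of the 6 stood near the front of the Zhx1-KO list. Of the 909 peaks, 6 held 20 or more TAGGG, a share of 0.66% (0.303 to 1.43), against 46 of 50636 other Zhx1-KO peaks, 0.0908% (0.0681 to 0.121). The whole control ZHX1 list held 6 such peaks, and all 6 of them lay at a knockout-only hnRNPA1 peak. The control hnRNPA1 list held 0 of 14662, and 3 with 10 or more. With the lower limit of 10, the counts were 6 of 909 and 110 of 50636. At that limit 6 of 7 such ZHX1 peaks lay at a knockout-only hnRNPA1 peak. Of the peaks in all 3 lists, 1 of 119 reached it, 0.84% (0.148 to 4.61). These limits, and the genes named in this paragraph and the next other than Adgrl2 and Flt1, were chosen after their values were seen.

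The 6 array peaks were named for Galnt3, Adgrl2, Gm14496, Flt1, Creb3l1 and Fgf14, and they held 28, 62, 76, 23, 27 and 86 TAGGG. Their counts of the G-quadruplex motif defined below were 0, 12, 19, 7, 7 and 20. A run of 4 TTAGGG units holds that motif, so the TAGGG of the Galnt3 peak did not stand in such a run. Adgrl2 encodes a latrophilin, an adhesion receptor of synapses, and Flt1 a receptor for the growth factor VEGF. The array named for Flt1 stood in an intron of Flt1. Those named for Galnt3 and Creb3l1 stood in introns of other genes, Ttc21b and Gm13618 for Galnt3 and Phf21a and Gm13780 for Creb3l1. The other 3 lay between genes. The ZHX1 peak covered 233, 327, 230, 236, 223 and 277 bp of them. Their places in the Zhx1-KO list were 2, 4, 29, 96, 148 and 44657, and those of their ZHX1 peaks in the ZHX1 list were 66, 224, 128, 372, 403 and 22357. So 5 of the 6 stood near the front of both lists, and Fgf14 did not in either. Of the first 100 peaks of the whole Zhx1-KO list, 22 held 20 or more TAGGG. The sources used here do not state what order the lists follow. The arrays at Gm14496 and Fgf14, which held the most TAGGG, each lay 100.03 kb from the end of the assembled chromosome and had a copy number of 1795. That distance counts undetermined bases (N) of the assembly. How much of it was N was not measured, so these arrays may lie at the end of the known sequence. The other 4 lay at least 4223.08 kb from a chromosome end and had copy numbers of 1 to 3.

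The share of peaks with any TAGGG was close in both sets. At least 1 TAGGG on either strand was present in 35.2% of the 909 (32.2 to 38.4) and in 35.3% of the others (34.9 to 35.7). For CCAAT on either strand the shares were 38.8% (35.7 to 42.0) and 38.2% (37.8 to 38.6). In each copy class the share was lower at the knockout-only peaks at ZHX1 sites. It was 30.5% (26.1 to 35.3, an interval that includes 32.9) against 32.9% (32.4 to 33.4) below 2 copies. With 2 or more it was 45.0% (40.8 to 49.3) against 50.1% (49.3 to 50.8). Peaks in both hnRNPA1 lists without ZHX1 had similar CCAAT shares, 31.0% (24.7 to 38.0) below 2 copies and 43.9% (38.7 to 49.2) with 2 or more. Peaks in all 3 lists had CCAAT in 8 of 17 and 35 of 102. Of 32851 RefSeq promoter windows of 300 bases, 37.4% held a CCAAT and 36.3% a TAGGG. A G-quadruplex motif, 4 runs of 3 or more G with loops of 1 to 7 bases, was present in 8.25% (6.63 to 10.2) against 5.48% (5.28 to 5.68), and below 2 copies in 12.4% (9.48 to 16.1) against 6.75% (6.49 to 7.02). Single-copy peaks in both hnRNPA1 lists without ZHX1 had a similar G-quadruplex share, 10.9% (7.15 to 16.2). Those in all 3 lists had 2 of 17, or 11.8% (3.29 to 34.3). The median GC content was 50.1% at the 909 peaks against 48.3% at the others. The part of GC content and width in these motif shares was not tested.

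The knockout-only peaks at ZHX1 sites were somewhat wide for this library. Their median width was 301 bp (quartiles 243 and 393), against 270 bp (224 and 345) for the other Zhx1-KO peaks. The smallest width in the list, 224 bp, was the width of 16.9% of them and of 28.2% of the others, while 10.9% and 4.66% reached 500 bp. Counted the other way, they formed 1.07% of all Zhx1-KO peaks of 224 bp and 4.49% (3.31 to 6.06) of those of 600 bp or more. A wide peak meets a ZHX1 peak more easily, so width is tied to the rule. Peaks in all 3 lists had a median of 305 bp and those in both hnRNPA1 lists without ZHX1 300 bp.

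**Figure D2:**
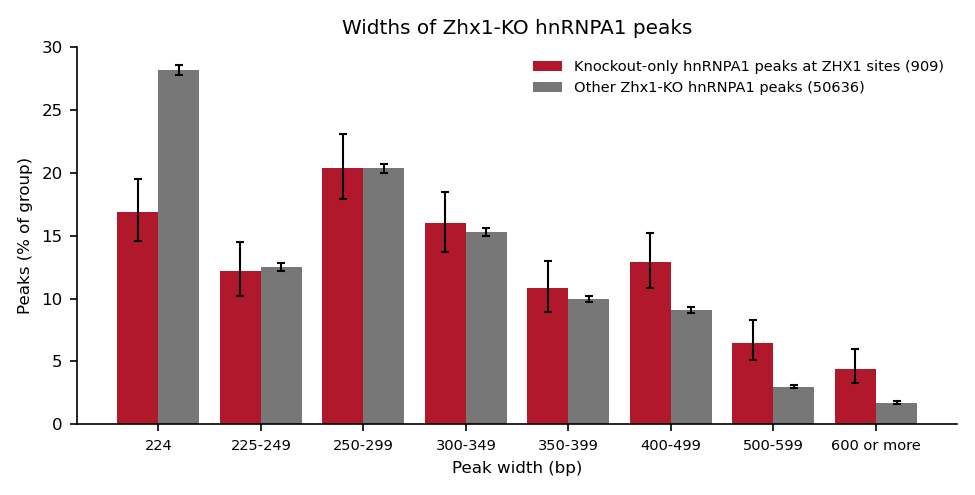
Share of peaks (%, y axis) in 8 classes of peak width (bp, x axis) for the 909 knockout-only hnRNPA1 peaks at ZHX1 sites (red) and the 50636 other Zhx1-KO hnRNPA1 peaks (grey), with Wilson 95% intervals. The red bar is the lower one at the smallest width, 16.9% against 28.2%, and the higher one from 300 bp upward.

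The 15 widest peaks ranged between 785 and 1263 bp. The widest, named for Erdr1 (1263 bp, chromosome Y, 90793130 to 90794392) and G530011O06Rik (1259 bp, chromosome X, 170018614 to 170019872), lie near the ends of the sex chromosomes, where X and Y share sequence, and both had a median copy number of 2. Another 9 of the 15 had median copy numbers between 274.5 and 3033 and were named for Hand2os1, 1700123L14Rik, Ttc14, Cyp2c70, Efhb, Snord14d, Olfr1340, Vmn2r45 and Prdm13. The remaining 4 were single-copy and lay at gene starts. Gbx2 encodes a homeobox factor of hindbrain patterning, and its peak was 976 bp wide (chromosome 1, 89930189 to 89931164, over coding sequence). Rrs1, a ribosome assembly factor, had a peak of 954 bp over coding sequence, 0.607 kb from its transcription start site (TSS). Lrrc75a had a peak of 926 bp in an intron, 0.288 kb from a TSS. Prdm6, a repressor of the PRDM family that acts in vascular smooth muscle and the heart, had a peak of 785 bp over coding sequence (chromosome 18, 53464348 to 53465132), and its ZHX1 peak of 275 bp lay inside it with the same centre.

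**Figure D3:**
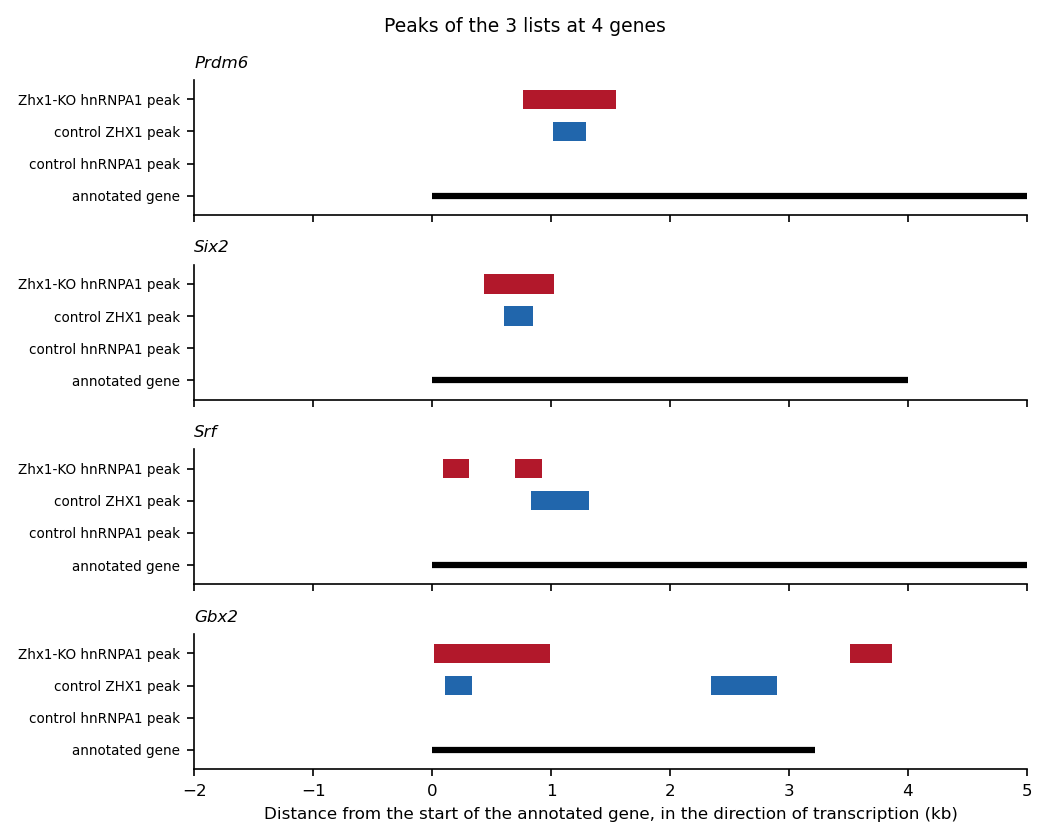
Peaks of the 3 lists (red, Zhx1-KO hnRNPA1; blue, control ZHX1; grey, control hnRNPA1) around the annotated starts of Prdm6, Six2, Srf and Gbx2, with distance along the gene in kb on the x axis and the annotated gene as a black bar. At each of the 4 genes a red bar lies over a blue one within 1.549 kb of the start, and no control hnRNPA1 peak falls in the window shown.

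Most of the hnRNPA1 peaks lay well on their ZHX1 peak. The shared stretch had a median of 202 bp and covered a median of 78.0% of the shorter peak. It covered at least 50% in 683 of 909 cases (75.1%) and the whole shorter peak in 196 (21.6%). The centres were a median of 104 bp apart, within 50 bp at 233 places and never more than 590.5 bp. Single-copy peaks fitted more loosely than multi-copy peaks, with a median cover of 68.6% against 85.6%. The 119 peaks in all 3 lists lay closer on ZHX1, with a median cover of 92.5% and centres a median of 64.5 bp apart. The ZHX1 peaks involved had a median width of 279 bp against 258 bp for the other ZHX1 peaks. All but 1 of the hnRNPA1 peaks had a single ZHX1 partner, and 896 carried the same deposited gene name as that partner.

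**Figure D4:**
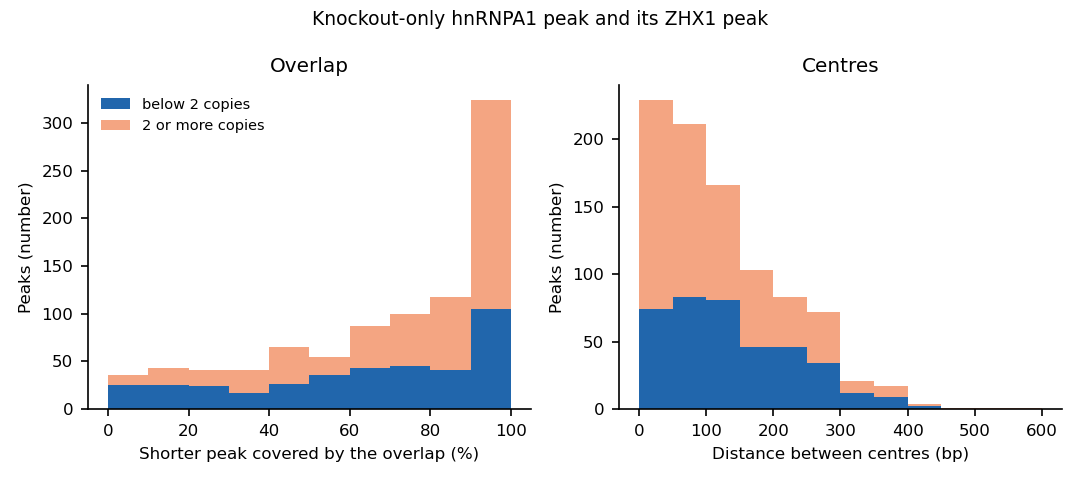
Left, the share of the shorter peak covered by the overlap (%, x axis), and right, the distance between the centres of the hnRNPA1 and the ZHX1 peak (bp, x axis), as numbers of peaks (y axis) stacked by copy class (blue, below 2 copies; orange, 2 or more). The highest column on the left is the one from 90 to 100%, and most centres on the right lie within 300 bp.

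At the edge of the rule, the peaks named for Prkcb and 4930452N14Rik shared 2 bp with ZHX1, and those for Skor1 and Uqcc1 shared 3 bp. Just outside it, Zhx1-KO peaks named for Gm5458, Lims1, Skint11 and Galnt2 ended at the base next to a ZHX1 peak, and the one named for Abr was 1 bp away. In all, 18 members shared 10 bp or less, and 11 peaks outside the rule lay less than 10 bp from ZHX1. On the other side of the rule, the control hnRNPA1 list had a peak 15 bp from the member named for Prkd1 and 36 bp from that for Mup9. Peaks named for Gm7978 and Zic1 were left out for sharing 20 and 25 bp with a control hnRNPA1 peak. A control hnRNPA1 peak lay within 1 kb of 44 of the 909 (4.84%). The median distance to the nearest one was 39.7 kb, against 51.1 kb for the other Zhx1-KO peaks. The lower quartiles were 11.1 and 18.2 kb, so the 909 as a whole lay somewhat closer to control hnRNPA1 peaks than the others. The gap was mostly one of multi-copy peaks, with medians of 33.4 against 53.1 kb. Below 2 copies the medians were 47.9 and 50.3 kb.

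Gene starts took a larger share of the single-copy places than of other single-copy Zhx1-KO peaks. Within 2 kb of a GENCODE M21 TSS were 130 of the 387 peaks below 2 copies, 33.6% (29.1 to 38.4), against 6112 of 34972 other single-copy Zhx1-KO peaks, 17.5% (17.1 to 17.9). With 1 kb the shares were 25.8% and 11.4%. The difference was present in each width class, at 29.6% against 16.3% under 250 bp and 41.1% against 19.1% at 350 bp or wider. Among multi-copy peaks the shares were 11.7% (9.21 to 14.7) and 8.13% (7.72 to 8.57). Over all 909 peaks the promoter share came to 21.0% (18.5 to 23.8), the same as for peaks in all 3 lists (25 of 119), against 14.6% of the other Zhx1-KO peaks. Single-copy peaks also sat over coding sequence in 9.56% against 4.95% and over UTR in 8.01% against 3.03%, with 42.4% against 46.4% in introns and 35.4% against 42.5% between genes. Single-copy peaks in both hnRNPA1 lists without ZHX1 lay between, with 24.5% (18.8 to 31.1) within 2 kb of a TSS. In that group 8.7% sat over coding sequence and 5.43% over UTR. Of the single-copy peaks in all 3 lists, 4 of 17 lay within 2 kb of a TSS. So these traits were not particular to the knockout-only peaks at ZHX1 sites. Of the 130 promoter peaks, 96 were nearest to the TSS of a protein-coding gene and 82 were within 0.5 kb of it.

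Six2, Srf, Mrtfa, Nr2f2, Tbx2 and Meis1 were the cardiac regulators with a peak of this kind. Of 245 Zhx1-KO hnRNPA1 peaks named for the cardiac regulators listed, 6 were knockout-only at ZHX1 sites, 2.45% (1.13 to 5.24), an interval that includes the background of 1.76% of all Zhx1-KO peaks. Below 2 copies the share was 5 of 189, 2.65% (1.14 to 6.04), an interval that starts just above the single-copy background of 1.09%. This difference was not tested, and several gene lists were compared in the same way. At Six2, a homeobox factor of second heart field progenitors and the kidney, the peak was 590 bp wide (chromosome 17, 85687248 to 85687837, coding sequence) and enclosed its ZHX1 peak of 250 bp, with centres 6 bp apart. At Srf, which encodes the serum response factor of muscle and cytoskeletal genes, the peak of 227 bp lay over coding sequence 0.813 kb from the TSS and shared 97 bp with ZHX1. Mrtfa, whose product is a coactivator of SRF, had a peak of 259 bp in an intron that shared 100 bp. The peak named for Nr2f2, a nuclear receptor of atrial and venous identity, was intergenic and had a copy number of 11007.5. Tbx2 and Meis1, chosen after their values were seen, had promoter peaks that shared 73 and 20 bp with ZHX1.

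Of the sarcomere and calcium handling genes, 2 of 219 peaks met the rule, 0.913% (0.251 to 3.27). The interval includes the 1.76% of the whole list. The peak at Atp2a2, which encodes the SERCA2 calcium pump of cardiac muscle, was 406 bp wide and lay over the UTR 0.063 kb from the TSS (chromosome 5, 122501630 to 122502035). The one named for Kcnj2, an inward rectifier potassium channel, was intergenic and multi-copy. Mef2c, Src and Epas1, the genes the study followed up, and Zhx1 and Hnrnpa1 themselves had no knockout-only peak at a ZHX1 site named for them. The Zhx1-KO list named 5, 3 and 6 peaks for Mef2c, Src and Epas1.

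Among Wnt and TGF-beta pathway genes 8 of 387 peaks met the rule, 2.07% (1.05 to 4.03). This interval includes the 1.76% of the whole list. Axin2, a negative feedback regulator of Wnt signalling, gave its name to a single-copy peak of 242 bp that shared 240 bp with ZHX1. It lay between genes, 4.23 kb from the nearest TSS, and stood at place 10 of the Zhx1-KO list and place 9 of the ZHX1 list. Bmp7, a ligand of the BMP branch, had an intergenic peak of 331 bp that shared 240 bp. Ryk, a Wnt receptor, had an intronic peak 0.983 kb from the TSS that shared 153 bp. The 3 peaks named for Acvr2a, an activin receptor, were all multi-copy.

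RNA-processing genes had 10 of 379 peaks, 2.64% (1.44 to 4.79), and below 2 copies 6 of 271, 2.21% (1.02 to 4.75). These intervals include the shares of the whole list, 1.76% and, below 2 copies, 1.09%. The peak at Rbm39, a splicing factor related to U2AF, lay over the UTR 0.017 kb from the TSS and shared 202 of its 273 bp. At Rbmxl2, a testis relative of RBMX, the peak of 224 bp was 0.181 kb from the TSS and shared 202 bp. Celf2, a splicing regulator of muscle and brain, had 2 single-copy peaks, of which the intronic one shared 198 bp and the one over the UTR 49 bp. Chromatin regulators had 6 of 355 peaks, 1.69% (0.777 to 3.64), all 6 single-copy. Below 2 copies this was 6 of 284, 2.11% (0.972 to 4.53), and these intervals also include the shares of the whole list. The peak of Kmt5b, a histone H4 lysine 20 methyltransferase, was 640 bp wide and enclosed a ZHX1 peak of 436 bp, 0.129 kb from the TSS. Kat6a, a histone acetyltransferase, had an intergenic peak that shared 185 of 224 bp, and Mbd2 and Chd6 had 38 and 34 bp in common with ZHX1.

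The shares of neural and channel genes were lower than the 1.76% of the whole list, with no test of the difference. Axon guidance and adhesion genes had 13 of 1288 peaks, 1.01% (0.591 to 1.72), with 9 of the 13 in multi-copy sequence, and ion channel genes 12 of 992, 1.21% (0.693 to 2.1, an interval that includes 1.76). The peak of Kcnh3, a potassium channel of the ether-à-go-go group, was the only 1 of the 12 ion channel peaks within 2 kb of a TSS. The extracellular matrix list had 8 of 512 peaks, 1.56% (0.794 to 3.05), among them Adamts12 and Itga9, where the ZHX1 peak covered the whole hnRNPA1 peak. Of markers of other cell types, endothelial and blood genes had 2 of 69 peaks, Flt1 and Tal1, or 2.9% (0.799 to 9.97). Fibroblast and smooth muscle genes had 0 of 54, an interval that reaches up to 6.64%. Both intervals include 1.76%. Tal1, a blood and endothelial transcription factor, had a single-copy peak of 224 bp in an intron, 0.481 kb from the TSS, sharing 129 bp with ZHX1.

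Gene families that lie in clusters had higher shares than the whole list, again with no test. Olfactory and vomeronasal receptor genes had 41 of 1364 peaks, 3.01% (2.22 to 4.05), and clustered zinc finger genes 25 of 894, 2.8% (1.9 to 4.1). Below 2 copies, where the background was 1.09%, the shares were 1.52% (0.77 to 2.96) and 1.94% (1.06 to 3.53), and both intervals include that background. Among the zinc finger genes, Zfp746 had the widest single-copy peak, 682 bp at 0.326 kb from the TSS, and the peak of Zfp638 lay 0.447 kb from the TSS. Both enclosed their ZHX1 peaks. Predicted and Riken genes, many of them transcripts with no assigned function, took 228 of the 909 peaks, 2.31% of their 9868 Zhx1-KO peaks, and 0.94% below 2 copies. MicroRNA genes took 31 of 1769 peaks, 1.75% (1.24 to 2.48), close to the 1.76% of the whole list.

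The peaks carried 770 gene names, 5.0% of the 15388 names in the Zhx1-KO list, and 694 of these names stood on 1 peak each. Mir6388 had the most, 8, all on chromosome 12 between 115158361 and 115659167, where 4 were multi-copy and the nearest annotated starts included the immunoglobulin heavy chain segments Ighv1-53, Ighv1-55 and Ighv1-60. G530011O06Rik (on X and Y) and Rn4.5s (chromosome 6, a repeated small RNA gene of rodents) had 7 each, and Erdr1, Gm3383 and Gm3500 had 6. All peaks of those 5 names were multi-copy. The deposited name was that of the nearest GENCODE TSS for 37.5% of the 909 peaks, against 41.8% of the other Zhx1-KO peaks, so a name alone does not place a peak at that gene. A name did not mean that hnRNPA1 was missing near that gene in control cells. Of the 770 names, 495 (64.3%) also occurred in the control hnRNPA1 list, at another place, against 44.5% of the other names in the Zhx1-KO list. The names here had a median of 5 Zhx1-KO peaks each against 2 for the others. At like numbers of peaks the shares were closer and not in one direction, at 21.3% (14.1 to 31.0) against 28.7% (27.5 to 29.9) for genes with 1 Zhx1-KO peak and 74 of 185 against 2090 of 5003 (41.8%) for genes with 2 to 3. With 4 to 9 peaks they were 70.0% (64.4 to 75.0) against 66.8% (65.2 to 68.5), and with 10 or more 95.8% against 93.8%.

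Over the chromosomes the single-copy peaks varied little. On the autosomes they formed between 0.647% (chromosome 14, 9 of 1391) and 1.71% (chromosome 15, 22 of 1288) of the single-copy Zhx1-KO peaks, around the 1.09% of the whole list, and the interval of each autosome but chromosome 15 (1.13 to 2.57) included that value. Chromosome 11 held the most, 56 of 387 or 14.5%, and it also held 11.8% of all single-copy Zhx1-KO peaks. Multi-copy peaks were less even around their share of 3.23% over all chromosomes. Chromosome Y had 15 of 144 multi-copy Zhx1-KO peaks, 10.4% (6.41 to 16.5), chromosome 8 had 36 of 696, 5.17% (3.76 to 7.08), and chromosome 14 had 55 of 1157, 4.75% (3.67 to 6.14). On chromosome X all 34 were multi-copy, but so were 996 of the 1016 Zhx1-KO peaks there.

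**Figure D5:**
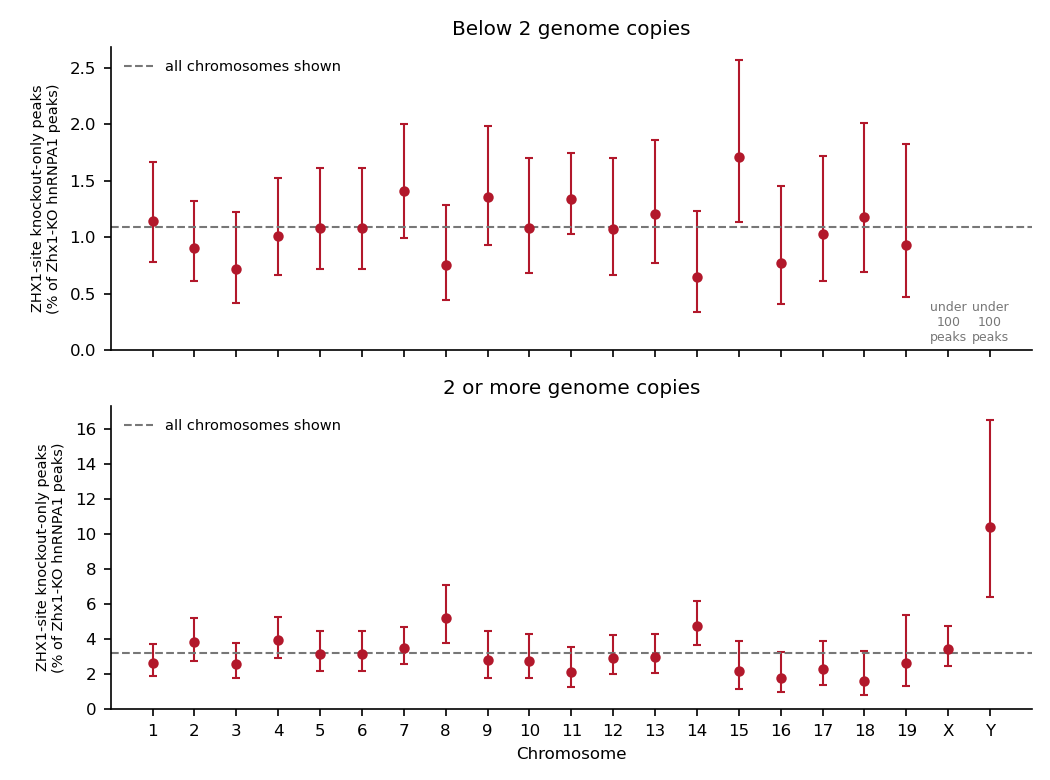
Knockout-only hnRNPA1 peaks at ZHX1 sites as a share of the Zhx1-KO hnRNPA1 peaks of each chromosome (%, y axis), for peaks below 2 genome copies (top) and with 2 or more (bottom), with Wilson 95% intervals and the share over all chromosomes shown as a dashed line. All intervals at the top but that of chromosome 15 include the line, and chromosome Y stands apart at the bottom at 10.4%. Chromosomes X and Y are not drawn at the top, where they had under 100 peaks, and chromosome M, with 1 peak, is left out.

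The uneven counts came with dense places. On chromosome 14, 16 of the 909 lay between 5076896 and 5842971, among 94 Zhx1-KO peaks in that 1 Mb window, and 10 more between 4073899 and 4819835, all of them multi-copy and named for genes such as Gm3383, Gm3500 and Gm5796. On chromosome 4 the 3 windows between 145526076 and 147586735 held 9, 8 and 9 peaks at the zinc finger genes Zfp600, Zfp980, Zfp981, Zfp982, Zfp985, Zfp990, Zfp991 and Rex2 and at other genes. The Zfp genes of these windows and Gm5796 were picked after their values were seen. On chromosome Y, 9 peaks named for Erdr1 and G530011O06Rik lay between 90723062 and 90825826. The vomeronasal receptor genes of chromosome 7 had 7 peaks in each of 2 windows, between 7363559 and 8995036. The mitochondrial genome had 1 Zhx1-KO hnRNPA1 peak, and it was one of the 909. It carried no gene name, lay over the ribosomal RNA gene mt-Rnr1 at 224 to 516, and sat inside a ZHX1 peak of 600 bp.

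Places in the deposited list also differed by copy class. In the first 10% of the Zhx1-KO list stood 194 of the 909 peaks, 21.3% (18.8 to 24.1), against 9.8% of the others. For multi-copy peaks the shares were 29.5% (25.8 to 33.6) and 17.9% (17.3 to 18.5), and for single-copy peaks 10.3% (7.68 to 13.8) and 6.16% (5.91 to 6.41). Of the 907 ZHX1 peaks involved, 186 stood in the first 10% of their own list, 20.5% against 9.57% of the other ZHX1 peaks. Among the peaks in all 3 lists, 55 of 119 were in the first 10% of the Zhx1-KO list, 46.2% (37.5 to 55.2). Peaks in both hnRNPA1 lists without ZHX1 had a share of 23.7% (20.2 to 27.5) there, so a place near the front was not particular to ZHX1 sites. In that group the share was 32.6% (27.8 to 37.7) for multi-copy and 7.07% (4.18 to 11.7) for single-copy peaks.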

How the data were processed

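Reads were trimmed with cutadapt 1.18 and aligned to GRCm38 by Bowtie2 2.3.5.1. The authors then removed unmapped, multiply mapped and duplicate reads. BWA 0.7.12-r1039 and deepTools 3.3.0 are further tools in the submitters' notes. Of the peak caller, its threshold and the use of inputs nothing is said in those sources. The deposited files hold called peak positions with a gene name each, from 1 library per file and without scores. Groups came from sample titles. Overlaps used 1-based GRCm38 positions, genes were from GENCODE M21, and sequences and repeat masking from the RefSeq GRCm38.p6 genome. The sequences of array peaks are not reported here. Copy number was the median genome count of a peak's 32-base words on both strands. Promoters reached 2 kb from a TSS, measured at the peak centre. Intervals are Wilson 95%. Named were the 15 widest peaks, the 10 genes with most peaks, up to 4 genes for each of 14 gene lists by cover of the shorter peak, lists of 5 or fewer genes in full, the genes the study followed up, and peaks at the edge of the rule. Peaks and lists were chosen with earlier results of these data known. Overlaps, copy numbers and motif counts were tested on simulated data. Software was Python 3.11.15, with matplotlib 3.10.9, numba 0.67.0, scipy 1.17.1, pandas 2.3.3 and numpy 2.4.6.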

Additional observations from a re-analysis of the deposited data

How the results depend on the processing

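Of 35 values recomputed under other settings, 25 moved by less than their interval or, for counts, by less than 1.5 times. Keeping peaks below 2 copies gave 387 peaks with 371 gene names, a share of 1.09% of Zhx1-KO peaks, 14.5% on chromosome 11 and 33.6% at a promoter. Requiring 50% of the shorter peak lowered the share of Zhx1-KO peaks to 1.33%. Leaving out peaks of the smallest width gave 2.03%, a median width of 328 bp and 61.1% multi-copy. A promoter of 1 kb gave 15.6%, against 9.34% of other Zhx1-KO peaks. Leaving out chromosome 11, or peaks within 1 kb of a control hnRNPA1 peak, moved none of these beyond those limits. The share on chromosome 11 without chromosome 11, and the multi-copy share below 2 copies, have no value. No paired analysis was possible because each group had 1 library. Since neither depth nor threshold is known, the lack of a called peak is not evidence that the protein was absent.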
